A study of Mus musculus with 16 samples.

Results

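*Ptprz1* encodes receptor-type protein tyrosine phosphatase zeta, a transmembrane chondroitin sulfate proteoglycan of glia whose secreted splice form is called phosphacan. It was examined together with the molecules that it binds or shares the matrix with. These were the ligands pleiotrophin (*Ptn*) and midkine (*Mdk*), the adhesion molecule contactin-1 (*Cntn1*), tenascin-R (*Tnr*), the proteoglycans neurocan (*Ncan*, written Cspg3 in the files), brevican (*Bcan*) and neuroglycan C (*Cspg5*), and the hyaluronan link protein *Hapln1*. These 9 genes, of 27962 names in the gene column of the array files, were measured by all probes that carry their name, 16 of 41174 probes. *Ptprz1* had 4 probes, *Cntn1*, *Cspg5*, *Mdk* and *Hapln1* had 2 each, and the other genes had 1 each.

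The probes were measured in whole lumbar spinal cord of male SOD1G93A mice, which carry a mutant human SOD1 transgene and model amyotrophic lateral sclerosis, and of non-transgenic wild-type mice. Both genotypes had a B6SJL background and were taken at 40 or at 80 days, before symptoms. There were 4 arrays for each genotype at each age, described as biological replicates. Every array carried the Cy3-labeled spinal cord RNA of its sample and a Cy5-labeled reference, a pool of neonatal heart, kidney and liver RNA of both genotypes, always with the same dyes. The study asked which genes differ between the genotypes at these early ages. Values are given as the log2 ratio of the Cy3 to the Cy5 signal after normalization. The normalization removes the trend of the ratio with brightness in each array. A value of 0 is therefore that trend and not equal signal, and a probe brighter in Cy5 can have a positive value. The tissue is bulk RNA, in which fewer cells of a type and less RNA per cell cannot be told apart.

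As background, the extracellular part of the phosphatase carries chondroitin sulfate chains to which pleiotrophin and midkine bind, and pleiotrophin inactivates the phosphatase. The receptor and phosphacan also bind contactin-1 on neurons and axons and tenascin-R in the matrix. Neurocan and brevican bind hyaluronan, link proteins hold this contact, and tenascin-R crosslinks the proteoglycans into the perineuronal nets that surround many spinal neurons.

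The 4 *Ptprz1* probes are shown because the results turn on how they differ. All of them lie on chromosome 6 of the mm7 (NCBI35) mouse build, on which the files place A_52_P527944 at chr6:22942347-22942406, A_52_P332486 at chr6:22942669-22942728, A_51_P370996 at chr6:22945214-22945273 and A_51_P206405 at chr6:22992824-22992884. In these 4 sequences capitals mark the longest run of letters that the probe shares with any other probe of the array, and none are marked where only the first 30 bases are shown, as for A_51_P370996. The array files give the probes 5′ to 3′ as follows.
A_52_P527944: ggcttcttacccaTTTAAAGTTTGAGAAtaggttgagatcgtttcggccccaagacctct
A_52_P332486: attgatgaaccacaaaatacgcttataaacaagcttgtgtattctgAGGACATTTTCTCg
A_51_P370996: ccctaacctgaacctcggcatttatgttac
A_51_P206405: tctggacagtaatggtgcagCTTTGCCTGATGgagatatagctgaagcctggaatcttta

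The starts of neighbouring probes lie 322, 2545 and 47610 bases apart. The files assign A_52_P527944 to a cDNA of a short phosphacan isoform and to a RIKEN clone. The other 3 probes list annotated transcripts of the gene, and A_51_P370996 also lists a cDNA of the secreted proteoglycan. The longest run that A_52_P527944 shares with another probe is 15 bases of the *Ubxd7* probe, whose median Cy3 signal was 42 units. Background knowledge, not these files, places the letters of A_52_P527944, read on the opposite strand, in the large-subunit ribosomal RNA. No ribosomal RNA sequence was used here, and which RNA this probe bound was not tested.

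The Cy3 signal was well above background, by the scanner software's own mark, on all 16 arrays for 3 of the *Ptprz1* probes and on 15 arrays for A_52_P332486. Among the partners, both probes of *Cntn1*, *Mdk* and *Cspg5* and the probes of *Ncan*, *Bcan* and *Ptn* were well above background on all 16 arrays. *Tnr* and *Hapln1* A_51_P101787 were on 11 arrays each. The second *Hapln1* probe, A_52_P97258, was on 5, with 2 at most in any group, and was the only member that was not tested, which left 15.

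The neuron, astrocyte and oligodendrocyte markers expected of this tissue (7, 8 and 6 genes) were well above background on all arrays. Of 5 motor neuron markers 3 were, while *Chat*, the acetylcholine-synthesizing enzyme, was on 0 of 16. Between 46.1% and 55.3% of probes were well above background in Cy3 and between 57.1% and 70.0% in Cy5. The arrays lay on 4 slides with 1 array of each group per slide. Each group kept its own place on every slide, so that place and genotype or age cannot be told apart. On 3 arrays, the third of the wild-type at 40 days and the fourth of SOD1G93A at 40 and at 80 days, 4, 5 and 63 spots had a Cy3 local background far above their own signal. For these spots the median background of the array was used.

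Of the 4 *Ptprz1* probes, A_52_P527944 was lower in SOD1G93A than in wild-type mice at 80 days, and the other 3 differed by less than the spread between arrays. The 9 genes were chosen by the difference of *Ptprz1* at 80 days and by their relation to it, so the values of that comparison are a description without a test. The log2 ratios of A_52_P527944 at 80 days were 1.26, 2.20, 1.36 and 2.49 in wild-type and 0.85, 1.03, 0.34 and 0.17 in SOD1G93A mice. Every wild-type array was above every SOD1G93A array. The difference was -1.23 (SE 0.29), a 2.35-fold lower ratio, the lowest among the 21603 probes tested at that age. Within the 4 slides it was -0.41, -1.17, -1.02 and -2.32. Without normalization within arrays the difference was -1.09 and the groups overlapped, and in the log2 values deposited by the authors it was -0.79.

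At 40 days the same probe had log2 ratios of 0.34, 0.72, 1.48 and 0.97 in wild-type and of 1.61, 1.93, 0.43 and 0.64 in SOD1G93A mice. Of the SOD1G93A arrays, 2 were above all wild-type arrays and 2 lay within their range. The difference of 0.27 (SE 0.34, 95% interval -0.49 to 1.04) did not pass the test (limma p = 0.441, adjusted p = 0.998, exact permutation p = 0.543). Within slides it was 1.27, 1.21, -1.05 and -0.33. In order of group means the probe was highest in wild-type mice at 80 days (1.83 ± 0.61, SD, n = 4), followed by SOD1G93A at 40 days (1.15 ± 0.73), wild-type at 40 days (0.88 ± 0.48) and SOD1G93A at 80 days (0.60 ± 0.41). Each pair of neighbours in this order overlapped. Between 40 and 80 days it differed by 0.95 in wild-type mice and by -0.56 in SOD1G93A mice, given without a test, and the groups overlapped in both. Whether the genotype difference changed with age was not tested.

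**Figure D1:**
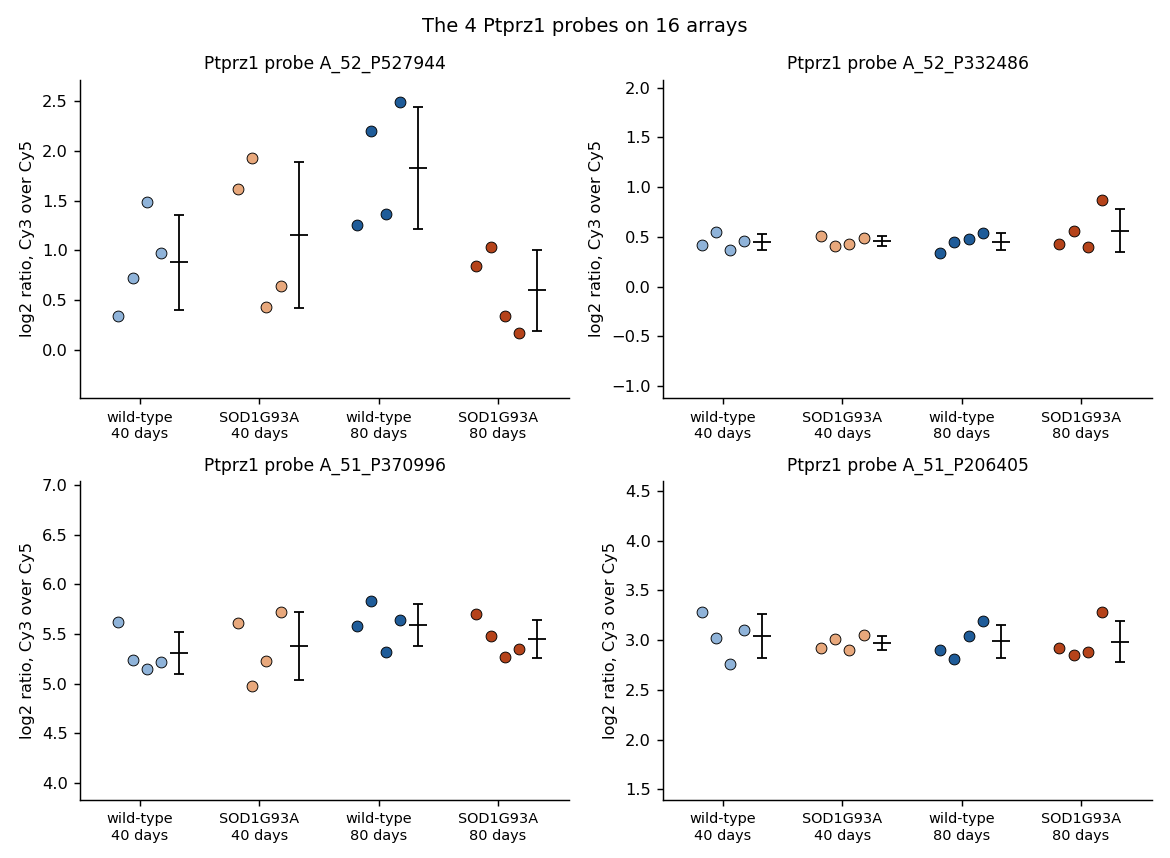
Log2 ratio of Cy3 to Cy5 for the 4 *Ptprz1* probes, 1 point per array, with the mean and SD of each group of 4 beside the points; every panel spans the same range of 3.2 log2 units. At 80 days the groups are apart for A_52_P527944 (1.26 to 2.49 against 0.17 to 1.03) and overlap for the other 3 probes.

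A_51_P370996 had log2 ratios of 5.58, 5.84, 5.31 and 5.64 in wild-type and of 5.70, 5.48, 5.27 and 5.35 in SOD1G93A mice at 80 days. The ranges overlapped, and the difference was -0.14 (SE 0.12, 95% interval -0.41 to 0.13). A_51_P206405, 47610 bases from the start of A_51_P370996, had 2.90, 2.81, 3.04 and 3.19 in wild-type and 2.92, 2.85, 2.88 and 3.29 in SOD1G93A mice, a difference of -0.0021 (SE 0.11). A_52_P332486, 322 bases from the start of A_52_P527944, had 0.33, 0.45, 0.47 and 0.54 in wild-type and 0.42, 0.56, 0.40 and 0.87 in SOD1G93A mice, a difference of 0.11 (SE 0.10). No difference of these 3 probes was larger than 0.14 in size at 80 days. At 40 days their differences were 0.07 (95% interval -0.29 to 0.44), -0.07 (-0.29 to 0.15) and 0.01 (-0.12 to 0.14), and none passed the test. From processed signals A_52_P332486 differed by 1.68 at 40 days and passed the limma threshold, and A_51_P206405 did so at -0.19 without the 3 arrays with bright local backgrounds. A_52_P332486 was dim, with Cy3 signals of 50 to 75 units and a Cy5 signal well above background on 1 array, so its ratio moves toward that of the offset and its differences are understated.

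Across the 16 arrays the log2 ratio of A_52_P527944 did not follow that of the other *Ptprz1* probes. Pearson's r was 0.16 with A_51_P370996, -0.25 with A_51_P206405 and -0.23 with A_52_P332486, given as a description of arrays that share a reference. The highest r between any of the 4 probes was 0.53, for A_51_P206405 and A_52_P332486. The SD of A_52_P527944 within groups was 0.57, larger than that of 99.5% of 17591 probes. For the other *Ptprz1* probes it was 0.25, 0.18 and 0.12, beside a median of 0.11 over those probes.

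The signals of A_52_P527944 were among the brightest of the arrays. Its Cy3 signal ranged from 17110 to 44289 units, with at most 40 spots brighter on any array, and its Cy5 signal from 182378 to 329467 units, with 12 to 55 spots brighter. No array marked either signal as saturated. In Cy5 the software had scaled it from the lower of its scans on all 16 arrays, and in Cy3 on 14. The reference RNA was common to all arrays, and its Cy5 signal on this probe varied 1.81-fold. The SD of the log2 Cy5 signal was 0.24, larger than that of 94.6% of spots that reached 1000 units in both channels. Other members varied in Cy5 as well, such as *Bcan* from 723 to 1726 units.

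The arrays with the lower Cy5 signal had the higher Cy3 signal, with r = -0.76 (Spearman -0.74) between the log2 signals over the 16 arrays and -0.75 after the group means were removed. Among 1471 spots that reached 1000 units in both channels the median of this r was 0.55, and it was lower for 0 of them. The group difference at 80 days was -0.84 on the log2 scale in the Cy3 signal, where the groups did not overlap, and 0.25 in the Cy5 signal, where they did. With the Cy3 channel alone, quantile normalized, it was -0.85. The part of the Cy5 signal in the 80-day difference of ratios was not tested further.

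**Figure D2:**
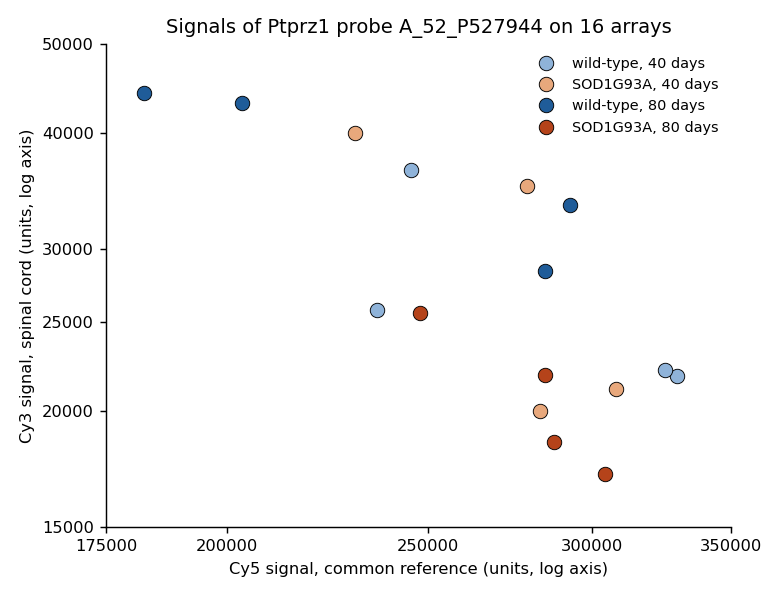
Cy3 against Cy5 median signal of *Ptprz1* probe A_52_P527944, in units on log axes, 1 point per array, coloured by group. The points run from high Cy3 with low Cy5 to low Cy3 with high Cy5 (r = -0.76), and the 4 SOD1G93A arrays of 80 days lie at Cy3 signals of 17110 to 25575 units, below the 4 wild-type arrays of that age.

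Among 21763 probes well above background, the *Grn* probe A_52_P508750 was most like A_52_P527944, with r = 0.96 over the 16 arrays. *Grn* encodes the growth factor precursor progranulin. This probe was also very bright, with a median Cy3 signal of 13050 and a median Cy5 signal of 169148 units, and its difference at 80 days was -0.60. It was followed by probes of *Syt10* (r = 0.90), *Zfp472* (0.86), *Bmpr2* (0.81) and *Fam110a* (0.81), with 80-day differences of -0.73, -0.14, -0.39 and -0.33. The longest run of letters that A_52_P527944 shared with any of the 5 probes was 9 bases, with *Fam110a*.

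Other probes of the same genes gave lower correlations. The other *Grn* probe, A_51_P192800, had r = -0.43 with A_52_P527944 and an 80-day difference of 0.20. Its log2 ratios at 80 days were -0.82, -1.02, -0.15 and -1.21 in wild-type and -0.92, -1.03, -0.66 and 0.22 in SOD1G93A mice. The last value, on an array with bright local backgrounds, sets the sign of this difference. The other *Syt10* probe, A_52_P77155, had r = -0.04 and a difference of -0.02. For *Bmpr2*, a receptor of bone morphogenetic proteins, the other probes had r = 0.14 and 0.19, and for *Zfp472* 0.59 and 0.23. The *Zfp472* probes were all dim, with median Cy3 signals of 68.5 for the first and 75 and 61 units for the others. These correlations are descriptions over 16 arrays and carry no p. Both array probes assigned to the ribosomal DNA region had r = 0.44 and 0.12 with A_52_P527944, and their 80-day differences were -0.26 and -0.09. They were far dimmer than A_52_P527944, with Cy3 signals of 151 to 267.5 and 317 to 580 units. Their Cy5 signals were 1284 to 2091 and 3516 to 6290.5 units. Whether they and A_52_P527944 bound the same RNA was not tested. For A_51_P370996, added after its values were seen, the nearest probe was that of *Gabrg1*, a GABA receptor subunit, with r = 0.89.

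**Figure D3:**
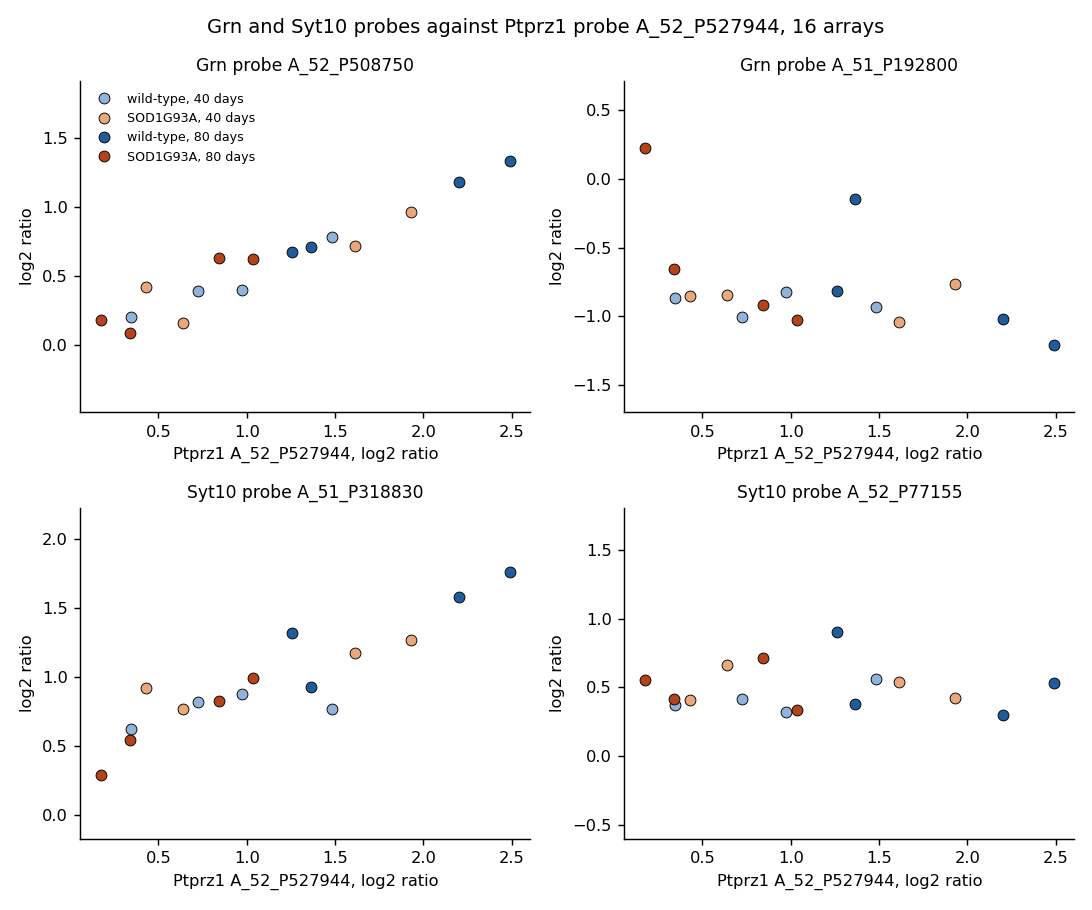
Log2 ratio of 2 *Grn* probes and 2 *Syt10* probes against that of *Ptprz1* probe A_52_P527944, 1 point per array, coloured by group; every panel spans 2.4 log2 units on the vertical axis. The left probe of each gene rises with the *Ptprz1* probe (r = 0.96 and 0.90), and the right probe of the same gene does not (r = -0.43 and -0.04). The right *Syt10* probe was dim, with a median Cy3 signal of 52.5 units.

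At 40 days the partners of *Ptprz1* were close in both genotypes. Of the 15 member probes tested, 1 passed an unadjusted p of 0.05, that of *Bcan*, against 4.47% of all 21338 probes tested. After Benjamini-Hochberg adjustment 0 of all probes passed (0%). The median difference of the members was 0.04, beside 0.0029 over all probes.

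*Bcan*, the brevican gene, had log2 ratios of 4.95, 4.92, 4.84 and 4.94 in wild-type and of 4.98, 5.07, 5.11 and 5.02 in SOD1G93A mice of 40 days. The SOD1G93A arrays were all higher, a separation found for 2.83% of probes. The difference was 0.13 (SE 0.05, limma p = 0.0357, adjusted p = 0.998), an increase of 1.09-fold, with an exact permutation p of 0.0286, the smallest that 4 against 4 arrays can give. It was higher on 4 of 4 slides, which, like the exact p, follows from the separation of the groups. *Bcan* also had a small spread, an SD within groups of 0.05, below that of all but 1.8% of probes. With the Cy3 channel alone the difference was 0.0059, without normalization within arrays 0.0075, and in the log2 values deposited by the authors -0.02, and none of these passed. It kept its direction but did not pass without the reset of bright local backgrounds (0.11), from processed signals (0.11), without the 3 arrays that had such backgrounds (0.11) and with the slide as a block (0.13). The call was lost without replicate 2 or 3 of the wild-type mice, and without replicate 2, 3 or 4 of the SOD1G93A mice, with limma p values from 0.0507 to 0.0983.

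Markers of astrocytes, which make brevican, moved in the same comparison. Of 8 astrocyte markers 4 passed an unadjusted p of 0.05, all higher in SOD1G93A mice. The score of the list on an array, the median over its genes of their distance from the 16-array mean, ran from -0.17 to -0.03 in wild-type and from 0.02 to 0.18 in SOD1G93A mice of 40 days. The summed Cy3 signal of these markers was 39700 to 52341 units in wild-type and 45670 to 53497 in SOD1G93A mice. Of 6 oligodendrocyte markers 2 were higher as well. Of 6 markers of oligodendrocyte precursors 0 were higher and 1 was lower (median -0.03). The share of all probes passing this threshold was 4.47%, and 0 of these markers passed after adjustment. The part of these cells in the *Bcan* difference was not tested.

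For the remaining partners no difference was detectable at 40 days. The ligands differed by 0.16 (*Ptn*, 95% interval -0.08 to 0.39) and by -0.09 and -0.08 (*Mdk*, intervals -0.35 to 0.16 and -0.26 to 0.10). *Cntn1* differed by 0.04 and 0.06, with intervals of -0.08 to 0.15 and -0.13 to 0.25. *Ncan* differed by 0.01 (-0.12 to 0.15) and *Tnr* by 0.04 (-0.16 to 0.23). *Cspg5* differed by -0.04 and -0.02 (-0.17 to 0.09 and -0.31 to 0.28) and *Hapln1* by 0.09 (-0.06 to 0.23). Of these, *Ptn* passed the limma threshold when replicate 3 of the SOD1G93A mice was left out (0.23).

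At 80 days the groups were apart for 2 of the 15 member probes, A_52_P527944 and the *Cspg5* probe A_52_P604849, against 4.31% of all probes. As the choice of the members goes back to this comparison, nothing is read from that count. The *Cspg5* probe, on chromosome 9 of mm7 at chr9:109947919-109947978, is shown in lower case, with no letters marked, because it was the only partner apart.
A_52_P604849: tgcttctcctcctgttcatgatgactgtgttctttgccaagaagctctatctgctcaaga

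*Cspg5* encodes a transmembrane proteoglycan of neurons and glia. A_52_P604849 had log2 ratios of 2.55, 2.32, 2.48 and 2.49 in wild-type and of 2.73, 2.71, 2.74 and 2.58 in SOD1G93A mice. All 4 SOD1G93A arrays were above all 4 wild-type arrays. The difference was 0.23 (SE 0.07), a 1.17-fold higher ratio. It was 0.45 from the Cy3 channel alone and 0.03 from the processed signals of the scanner software, by which the groups overlapped. The Cy5 signal of this probe, from the common reference, was also apart, at 342 to 472 units in wild-type and 523 to 592 in SOD1G93A mice. Its mean log2 Cy5 signals were 8.74 and 9.11. The part of the array-wide or Cy5 signal in the difference was not tested. The second *Cspg5* probe, A_52_P437662, had 3.67, 3.77, 3.80 and 3.68 in wild-type and 3.82, 3.68, 3.78 and 3.78 in SOD1G93A mice, a difference of 0.04 (SE 0.06). Over all arrays the 2 probes had r = 0.19.

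The other partners overlapped between the genotypes at 80 days. *Mdk* A_51_P453635 had the largest difference of them, 0.17 (SE 0.09), while the second *Mdk* probe differed by 0.02 (SE 0.07). *Ptn* differed by -0.12 (SE 0.13), *Hapln1* by -0.10 (SE 0.08) and *Ncan* by -0.08 (SE 0.08). *Cntn1* differed by 0.09 and 0.03, *Bcan* by 0.03 and *Tnr* by 0.03. The median difference of the 15 member probes was 0.03, beside -0.0012 over all probes.

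**Figure D4:**
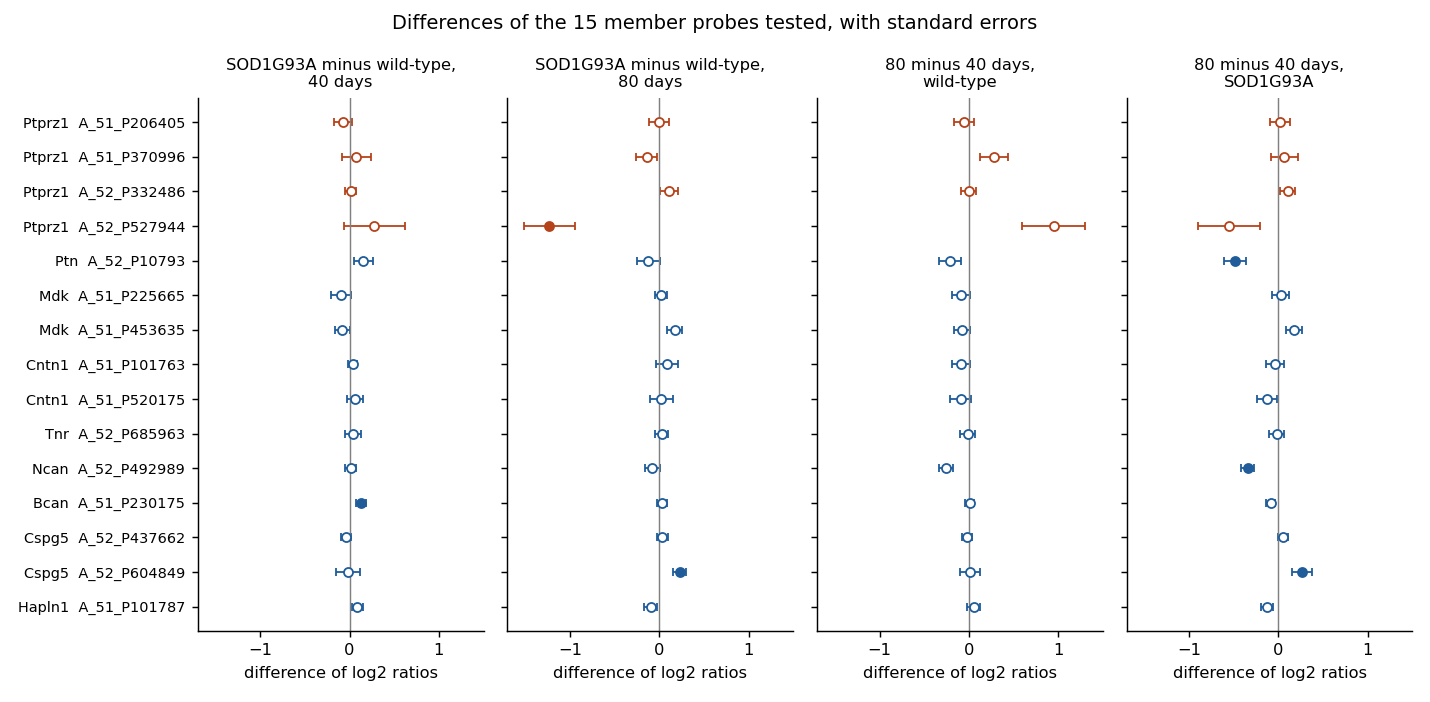
Difference of log2 ratios with its standard error for the 15 member probes tested, in 4 comparisons; red marks *Ptprz1*, blue the partners, and filled points mark probes whose 2 groups do not overlap. A_52_P527944 stands at -1.23 at 80 days, while the other *Ptprz1* probes lie between -0.14 and 0.11 there.

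Between 40 and 80 days neurocan fell in both genotypes and pleiotrophin in SOD1G93A mice. These comparisons used all 16 arrays for the estimate of spread, and 9 partner probes were tested. *Ptprz1* and *Cspg5*, which the study lists at 80 days, are given without a test. The other partners were chosen for their relation to *Ptprz1*, but with earlier results known, and the 80-day arrays enter here again, so that these p-values are not independent of the choice. In wild-type mice 1 of the 9 passed an unadjusted p of 0.05, against 15.3% of all 21526 probes, and 0 of the 9 were apart, against 7.77%. In SOD1G93A mice 2 of the 9 passed, against 17.2% of 21507 probes, and the same 2 were apart, against 12.6%. With 9 probes, nothing is read from these counts. After adjustment the only partner to pass was *Ncan* in SOD1G93A mice, where 1.18% of all probes passed, beside 0 partners and 1.63% of all probes in wild-type mice.

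*Ncan* encodes a proteoglycan that is abundant in the developing nervous system and declines as the tissue matures. Its log2 ratios in wild-type mice were 5.75, 5.83, 5.65 and 5.88 at 40 days and 5.46, 5.51, 5.46 and 5.65 at 80 days. Only the highest array of 80 days reached the lowest of 40 days. The difference was -0.25 (SE 0.07, limma p = 0.00347, adjusted p = 0.106, exact permutation p = 0.0571), lower on 4 of 4 slides. In SOD1G93A mice the log2 ratios were 5.76, 5.82, 5.74 and 5.84 at 40 days and 5.44, 5.45, 5.26 and 5.64 at 80 days, with no overlap. The difference was -0.34 (SE 0.07, limma p = 0.000275, adjusted p = 0.0326, exact permutation p = 0.0286), a 1.27-fold decrease. It was lower on 4 of 4 slides, which, like the exact p, follows from the lack of overlap. Whether the decrease differed between the genotypes was not tested.

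The *Ncan* calls depended on the background step. Without the reset of bright local backgrounds the differences were -0.09 in wild-type and -0.19 in SOD1G93A mice, and neither passed. From processed signals the wild-type difference was -0.14, and without normalization within arrays the SOD1G93A difference was -0.17, which did not pass either. Both calls held when any 1 array was left out. Markers of oligodendrocyte precursors, which also make neurocan, passed an unadjusted p of 0.05 for 3 of 6 genes in wild-type and 1 of 6 in SOD1G93A mice, all lower at 80 days. The share of all probes passing was 15.3% in wild-type and 17.2% in SOD1G93A mice, so that 1 of 6 (16.7%) is near it. Their list score ran from 0.02 to 0.19 at 40 and from -0.28 to 0.01 at 80 days in wild-type, and from -0.05 to 0.17 and from -0.15 to 0.03 in SOD1G93A mice. Their summed Cy3 signal was 3330 to 4637 and 2234 to 2971 units in wild-type, and 3402 to 4294 and 2766 to 4149 units in SOD1G93A mice. Oligodendrocyte markers were lower at 80 days as well, with 2 of 6 passing in wild-type (median -0.17) and 3 of 6 in SOD1G93A mice (median -0.31). Their summed Cy3 signal was 71416 to 86952 and 60261 to 72317 units in wild-type, and 84532 to 88340 and 68940 to 79435 units in SOD1G93A mice. Of 8 astrocyte markers 3 were higher in wild-type mice (median 0.18), while 1 was higher and 2 were lower in SOD1G93A mice (median -0.18). The part of these cells in the *Ncan* decrease was not tested.

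*Ptn*, the ligand that inactivates the phosphatase, had log2 ratios in SOD1G93A mice of 1.19, 1.09, 0.91 and 1.38 at 40 days and of 0.79, 0.64, 0.40 and 0.79 at 80 days. All 4 values of 80 days were lower. The difference was -0.49 (SE 0.13, limma p = 0.00144, adjusted p = 0.0725, exact permutation p = 0.0286), a 1.40-fold decrease. It was found on 4 of 4 slides, which, like the exact p, follows from the lack of overlap. It passed the unadjusted threshold under every alternative setting run, with limma p values from 0.000646 to 0.0163. The oligodendrocyte and astrocyte markers given above for SOD1G93A mice had medians below 0 in the same comparison. Of 7 neuron markers 1 passed, lower, which is 14.3% beside 17.2% of all probes. The differences of all 7 lay between -0.20 and -0.03. The summed Cy3 signal at 40 and 80 days was 45670 to 53497 and 43290 to 53763 units for astrocyte markers and 54235 to 64070 and 55464 to 61912 units for neuron markers. The part of these cells in the *Ptn* decrease was not tested. In wild-type mice *Ptn* had 0.87, 0.97, 1.21 and 0.90 at 40 days and 0.89, 1.05, 0.46 and 0.72 at 80 days, with overlap and a difference of -0.21 (SE 0.13, limma p = 0.116, exact permutation p = 0.229). It passed there without normalization within arrays (-0.34) and without replicate 2 of 80 days (-0.30). The difference between the genotypes was not tested.

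The second ligand did not follow. *Mdk* differed between the ages by -0.09 and -0.08 in wild-type and by 0.02 and 0.17 in SOD1G93A mice, where A_51_P453635 was higher on 4 of 4 slides (limma p = 0.0612, exact permutation p = 0.0571). That probe passed the limma threshold in SOD1G93A mice without normalization within arrays (0.24), without the 3 arrays with bright local backgrounds (0.21), without replicate 4 of 40 days (0.21) and without replicate 2 of 80 days (0.23). In wild-type mice it passed in the other direction without normalization within arrays (-0.25). The *Mdk* probes had r = 0.70 over the 16 arrays, the highest of any pair of probes of 1 member gene. *Hapln1* differed by 0.05 in wild-type and -0.13 in SOD1G93A mice (limma p = 0.452 and 0.0754, exact permutation p = 0.4 and 0.143). In SOD1G93A mice it passed from processed signals (-0.61), with array weights (-0.15), without replicate 2 of 40 days (-0.16) and without replicate 3 of 80 days (-0.19). *Bcan* differed by 0.0077 and -0.09, *Tnr* by -0.01 and -0.02, in this order of genotypes, and *Cntn1* by -0.09 and -0.09 in wild-type and -0.04 and -0.13 in SOD1G93A mice. *Bcan* passed in SOD1G93A mice without replicate 2 of 80 days (-0.12). Among probes given without a test, *Cspg5* A_52_P604849 was higher at 80 than at 40 days in SOD1G93A mice by 0.26 with no overlap, and A_52_P437662 by 0.05 with overlap. The Cy5 signal of A_52_P604849 was 410 to 506 units at 40 days and 523 to 592 at 80 days in these mice. *Ptprz1* A_51_P370996 was higher by 0.28 and 0.07, A_52_P332486 by 0.00058 and 0.10, and A_51_P206405 differed by -0.05 and 0.01, in wild-type and SOD1G93A mice.

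**Figure D5:**
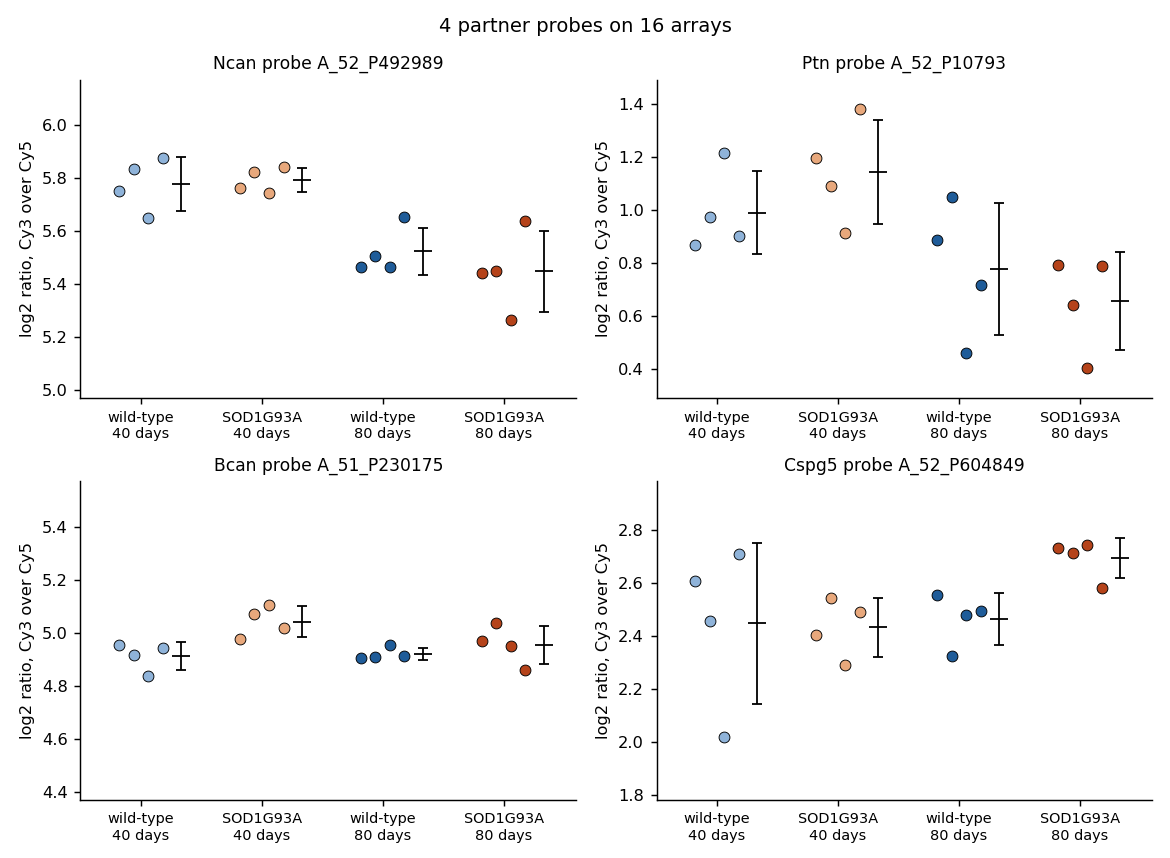
Log2 ratio of Cy3 to Cy5 for *Ncan*, *Ptn*, *Bcan* and *Cspg5* A_52_P604849, 1 point per array, with the mean and SD of each group of 4 beside the points; every panel spans 1.2 log2 units. The mean of *Ncan* is lower at 80 than at 40 days in wild-type (-0.25) and SOD1G93A mice (-0.34). That of *Ptn* is too, with overlap in wild-type (-0.21) and without it in SOD1G93A mice (-0.49). The *Bcan* groups of 40 days differ by 0.13.

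The wider pathway was followed through a list of 66 genes, of which 64 had a probe. It held other lecticans, link proteins and tenascins, enzymes of hyaluronan and chondroitin sulfate synthesis, matrix proteases, other receptors of the ligands, adhesion molecules and substrates of the phosphatase, with 1 probe per gene. At 40 days 1 of 58 genes tested was higher in SOD1G93A mice and 3 were lower at an unadjusted p of 0.05. This is 6.9% of the list beside 4.47% of all probes, and none passed after adjustment. The hyaluronan receptor *Cd44* was higher by 0.19 (limma adjusted p = 0.998). The gelatinase *Mmp2*, the proteoglycan *Cspg4* and the linkage enzyme *B3galt6* were lower, by -0.29, -0.18 and -0.14. Of 4 meningeal fibroblast markers 0 passed the limma test at an unadjusted p of 0.05, and their differences lay between -0.98 and -0.66 (median -0.75). Their list score ran from -1.46 to 1.00 in wild-type and from -1.36 to 0.45 in SOD1G93A mice, and their summed Cy3 signal from 718.9 to 3468.5 and from 633.3 to 2316.5 units. Their part in the *Mmp2* difference was not tested. The median difference of the list was -0.02.

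At 80 days 3 of 60 genes were higher and 1 was lower, 6.67% of the list beside 6.86% of all probes, and again none passed after adjustment, in the list or among all probes (0%). The pleiotrophin receptor *Sdc3* was higher by 0.29, the scaffold *Magi1* by 0.22 and the sulfotransferase *Chst12* by 0.14 (limma adjusted p from 0.708 to 0.721). The adhesion molecule *Chl1* was lower by -0.34 (limma adjusted p = 0.708). Both shares were near the background.

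Between the ages more of the list moved, as did more of all probes. In wild-type mice 6 of 59 genes were higher and 5 lower at 80 days, 18.6% beside 15.3% of all probes, and 3 passed after adjustment. These were *Chst3*, which sulfates chondroitin, by -0.42 (limma adjusted p = 0.00299), *Cspg4*, by -0.30 (0.0467), and the kinase *Fyn*, by -0.27 (0.0483). *Cspg4* and *Fyn* are named here for their adjusted p, after their values were seen. The midkine and pleiotrophin receptor *Alk* was higher by 0.53 and the axonal adhesion molecule *Nfasc* lower by -0.37, with adjusted p of 0.072 and 0.252 by limma. The adhesion molecule *Chl1* was higher by 0.34 (limma adjusted p = 0.173).

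In SOD1G93A mice 9 of 60 genes were higher and 7 lower, 26.7% beside 17.2%, and 1 passed after adjustment, the hyaluronan synthase *Has2*, by -0.25 (limma adjusted p = 0.0498), which is named for that reason after its value was seen. The protease *Adamts1* was higher by 0.55, *Sdc3* by 0.47 and the linkage enzyme *B3gat3* by 0.39, while *Nfasc* was lower by -0.43. Of 14 genes of chondroitin sulfate synthesis, 4 were higher and 2 lower in SOD1G93A mice, against 0 and 1 in wild-type mice. Of 10 adhesion molecules 3 were lower in SOD1G93A mice. Of 9 in wild-type mice 3 were higher and 1 lower. Over all probes 8.77% were higher and 8.43% lower in SOD1G93A mice, and 6.88% and 8.4% in wild-type mice. These are some of several groups in the list. Of 11 other receptors of the ligands or chondroitin sulfate, 3 were higher and 0 lower in each genotype. With so few genes, nothing is read from these counts. The difference between the genotypes was not tested for these groups.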

How the data were processed

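The authors hybridized Cy3-labeled cRNA of the spinal cord with a Cy5-labeled common reference to 16 two-colour whole mouse genome arrays. They extracted the spots with Agilent Feature Extraction, version 9.5.3.1 in the file headers and the submitters' processing notes. Per the labels 4 samples make a group, and all 16 arrays were used. The methods name 5 male animals per group, and 4 samples per group were analysed here. The deposited scanner files give each spot as a linear intensity, not normalized. A series matrix of log2 values, normalized by the authors separately for each age, served as an alternative within an age.

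From the median signals, spots over 20 units below their local background were given the background median of their array. Then followed limma's normexp with an added offset of 50 and loess in each array (limma 3.58.1 and statmod 1.5.0 in R 4.3.3). Quantile normalization of average brightness across the arrays was left out, as it alters no ratio. The offset draws the ratios of dim probes together. Control and outlier spots were dropped. Testing required a Cy3 signal well above background on 3 of 4 arrays in 1 group or more, and 2 measured arrays in both. Genotypes were compared with lmFit and eBayes on 8 arrays, and ages on 16. Calls used the study's threshold, an unadjusted two-sided limma p under 0.05, with Benjamini-Hochberg adjusted values beside it and two-sided exact permutation tests for single probes. The number of arrays limits the precision. The fits were tested on simulated data. RefSeq accessions gave the symbols of 22951 probes.

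Members and gene lists were chosen with earlier results of these data known. All probes of the 9 members are named, the pathway genes with an unadjusted p under 0.05 up to the 4 largest changes per comparison and, added after their values were seen, those with an adjusted p under 0.05, and the 5 probes most like the brightest *Ptprz1* probe. Replicate numbers equal slide numbers, but same-numbered arrays did not deviate together (r from -0.18 to 0.21 over 24 pairs, 5 of them over 0.1), so the main design has no block. The alternatives changed the background step, the normalization, the source of the values, the filters, the weights and the arrays included. The one that leaves out the 3 arrays with bright local backgrounds was chosen after seeing the data. Plots were made in Python 3.11.15 with matplotlib 3.10.9.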

Additional observations from a re-analysis of the deposited data

Results flagged for a closer look

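Of 64 groups of 4 arrays examined, 2 held an array far from the other 3, and chance alone flags about 1 group in 20. *Ptprz1* A_51_P206405 had a log2 ratio of 3.29 on the fourth SOD1G93A array of 80 days, while the other 3 lay between 2.85 and 2.92. This array is 1 of the 3 with bright local backgrounds. Without it the genotype difference of the probe at 80 days was -0.10 in place of -0.0021. *Bcan* had a log2 ratio of 4.96 on the third wild-type array of 80 days, while the other 3 rounded to 4.91, so that the whole group spans less than the *Bcan* difference of 0.13 at 40 days.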

How the results depend on the processing

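Counts below are of member probes passing (at 80 days, of groups apart) or of pathway genes passing. Without the reset of bright local backgrounds, member counts were 0 at 40 days and 0 and 1 for the ages in wild-type and SOD1G93A mice, and pathway counts were 2 at 40 days, 2 at 80 days, 4 and 10. From processed signals the members had 1 at 40 days, *Ptprz1* A_52_P332486 (1.68) in place of *Bcan*, 1 at 80 days and 0 for age in wild-type mice, and the pathway 2 at 80 days, while A_52_P332486 moved to 1.71 for age in wild-type mice. Without normalization within arrays the members had 0 at 40 days, 1 at 80 days and 3 for age in wild-type mice, 0 *Ptprz1* probes were apart at 80 days (A_52_P527944 at -1.09), and the pathway had 9 at 80 days and 10 for age in SOD1G93A mice. From the Cy3 channel alone the members had 0 at 40 days and the pathway 2 and 1 at 40 and 80 days. From the series matrix these were 0, 2 and 2, the *Bcan* difference at 40 days turned to -0.020, and A_52_P527944 had -0.79 at 80 days. The series matrix was not run between ages. Array weights gave 8 pathway genes at 80 days.

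The replicate block, which is the slide, was run although same-numbered arrays did not deviate together. It gave 0 members at 40 days, where *Bcan* (0.13) no longer passed, and changed no other call of a member. Pathway counts stayed at 4 and 4, and went from 11 to 10 and from 16 to 16 for the ages. With 1 array left out in turn, member counts ran from 0 to 1 at 40 days, from 2 to 4 at 80 days, from 1 to 2 for age in wild-type and from 2 to 4 in SOD1G93A mice. The counts of 4 came without SOD1G93A replicate 2 of 80 days, and that of 2 in wild-type mice without wild-type replicate 2 of 80 days. Pathway counts ran from 2 to 7 at 40 days, with 2 without wild-type replicate 1 or 2 or SOD1G93A replicate 1, and 7 without wild-type replicate 4. At 80 days they ran from 1 to 6, with 1 without SOD1G93A replicate 1, and 2 without SOD1G93A replicate 2 or 3 or wild-type replicate 1 or 4. The difference of A_52_P527944 at 80 days ran from -1.42 to -1.01 with 1 array left out and from -1.29 to -0.79 over the other alternatives, all with the same sign. With 1 array left out the sign could not turn, since the groups were apart. Of 1029 alternative values of differences that were not called, 128 turned sign, all of differences that were at most 0.14 in size in the main setting. The cause of these changes was not tested. Dim probes (*Tnr*, *Hapln1*, *Ptprz1* A_52_P332486) lie near the background, and a difference there is understated.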
